A study of Mus musculus with 2 samples.

Results

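The genes described here are titin, nebulin and 7 other genes of sarcomere assembly: Ttn, Neb, Nrap, Xirp1, Xirp2, Myom1, Myom2, Myoz1 and Smyd1. They were taken by symbol from a list, and all 9 were found among the 25906 genes of both libraries. RNA of single cells was measured with 10x Genomics 3′ v3.1 chemistry, which counts molecules (unique molecular identifiers, UMIs) near the 3′ end of transcripts, in induced myogenic progenitor cells (iMPCs) of the mouse. These are muscle progenitor cultures made from embryonic fibroblasts (MEFs) by overexpression of Myf6, a muscle regulatory transcription factor, together with small molecules. There was 1 library of a MyoD-WT clone and 1 of a MyoD-KO clone, both at passage 4. Both clones carry the strain label Myod1tm1Jae, and both were grown in medium with 10 ng/mL of the growth factor bFGF, 5 µM of forskolin (which raises cyclic AMP), 5 µM of RepSox (a TGF-beta receptor inhibitor) and 3 µM of CHIR99021 (a GSK3 inhibitor). MyoD (gene Myod1) is the transcription factor removed in the KO genotype. With 1 clone and 1 library a genotype, genotype, clone and library cannot be told apart. No test was therefore made and no p-value is given, and every interval below is a 95% interval of counting error only.

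The sarcomere is the contractile unit of striated muscle, with thin actin filaments held at the Z-disc and thick myosin filaments held at the M-band. Titin is the giant protein that runs from Z-disc to M-band, and nebulin runs along the thin filament. Myofibrils are built when myoblasts leave the cell cycle, turn on myogenin (Myog) and fuse. In that process Nrap and the Xin proteins (Xirp1, Xirp2) are found at sites of assembly and at muscle ends, myomesins (Myom1, Myom2) link thick filaments at the M-band, Myoz1 is a calcineurin-binding Z-disc protein, and Smyd1 is a muscle methyltransferase that works with chaperones of myosin folding.

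The library depths were similar. The WT library held 8191 barcodes and 285232252 UMIs, and the KO library held 7670 barcodes and 282739488 UMIs. After filters on genes detected, mitochondrial share and doublet calls, 7316 WT and 5638 KO cells were kept, with a median of 35515.5 and 40426.5 UMIs a cell. The kept libraries shared 9 barcodes. Myod1 itself was at 162 counts per 1000000 UMIs (CPM) in WT and 63.3 CPM in KO. A 3′ tag may lie outside the deleted part, which the labels do not describe, so these values do not check the genotype. Skeletal muscle markers were present in the cells called muscle-rich below, 8 of 8 at 10 CPM or more in both libraries. Of 8 heart markers, 1 reached 10 CPM in WT muscle-rich cells with Myh1/Myh4 and 0 in KO, with summed levels of 16.3 CPM and 6.73 CPM.

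Cells were ordered with genes that are not among the 9. A cell was muscle-rich when 15 contractile genes (actins, myosin light chains, troponins and the slow and developmental myosins) took at least 3% of its UMIs. Muscle-rich cells were split by the adult fast myosins Myh1 and Myh4, at 200 CPM and at least 3 UMIs together. Myog+ cells were below 3% and had Myog at 100 CPM or more and at least 3 UMIs. All others were Myog-low. In WT the 4 groups held 4863 Myog-low, 1427 Myog+, 348 muscle-rich cells without Myh1/Myh4 and 678 with them. In KO they held 3524, 1068, 155 and 891 cells. The groups without Myh1/Myh4 were not alike in depth: the median was 34752 UMIs in WT and 5307 in KO, and 146 of the 155 KO cells were under 15000 UMIs, against 69 of 348 in WT. The KO group is thus mainly a group of shallow barcodes. Its Myh1 and Myh4 levels, 133 and 20.8 CPM, were below the gate in sum, but the gate itself selected these cells. In a cell under 15000 UMIs the minimum of 3 UMIs asks for more than 200 CPM. The split was thus stricter in shallow barcodes than in deep ones. A gene counted as higher or lower in a comparison when the levels differed at least 2-fold and the higher was at least 10 CPM.

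The RefSeq promoter table (build GRCm38.p6, not the build named in the submitters' processing notes) held 5 of the 9 genes. The 250 bases before the start are shown for Ttn and Smyd1, the genes lower in KO Myog+ cells, and for Nrap and Xirp2, which come later. They lie at chr2:76982548-76982797, minus strand (Ttn), chr6:71262282-71262531, minus strand (Smyd1), chr19:56390039-56390288, minus strand (Nrap) and chr2:67445752-67446001, plus strand (Xirp2). Capitals mark matches on either strand to the E-box CANNTG, the site class that MyoD and myogenin bind (CAGCTG is one form of it), to the MCAT motif CATTCC, and to the MEF2 box and the CArG box, the binding motifs of MEF2 factors and of serum response factor. The sequences, 5′ to 3′ in the direction of the gene, are as follows.
Ttn: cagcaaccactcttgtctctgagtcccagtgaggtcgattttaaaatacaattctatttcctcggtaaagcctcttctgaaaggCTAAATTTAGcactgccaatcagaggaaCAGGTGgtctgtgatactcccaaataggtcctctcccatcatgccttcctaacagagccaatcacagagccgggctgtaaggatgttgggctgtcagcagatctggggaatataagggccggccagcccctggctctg
Smyd1: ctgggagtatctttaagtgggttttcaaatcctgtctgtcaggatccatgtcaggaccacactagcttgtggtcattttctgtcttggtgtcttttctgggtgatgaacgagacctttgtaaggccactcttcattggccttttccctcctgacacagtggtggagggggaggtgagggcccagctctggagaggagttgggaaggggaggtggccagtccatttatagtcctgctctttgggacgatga
Nrap: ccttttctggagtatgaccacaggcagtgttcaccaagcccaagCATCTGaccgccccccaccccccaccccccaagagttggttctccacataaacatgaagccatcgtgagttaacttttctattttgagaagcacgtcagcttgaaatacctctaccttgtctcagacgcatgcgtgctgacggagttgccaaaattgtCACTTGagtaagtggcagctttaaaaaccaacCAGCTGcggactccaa
Xirp2: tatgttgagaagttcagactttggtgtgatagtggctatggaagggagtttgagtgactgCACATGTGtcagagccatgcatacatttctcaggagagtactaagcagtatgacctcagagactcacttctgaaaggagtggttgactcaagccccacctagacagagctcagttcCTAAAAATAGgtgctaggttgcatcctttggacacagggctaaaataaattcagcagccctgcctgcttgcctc
Of all 32851 promoters in the table, 66.2% held CANNTG, 13.0% CAGCTG, 12.6% CATTCC, 2.92% the MEF2 box and 1.47% the CArG box in the same 250 bases. The Ttn window held 1 E-box and 1 MEF2 box, and that of Smyd1 held none of the motifs searched. Nrap had 3 E-boxes, 1 of them CAGCTG, and Xirp2 had 2 overlapping E-boxes and 1 MEF2 box. The Myom1 window (not shown) had 3 E-boxes and 1 CArG box. A match is letters in a window, not a bound site.

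Titin, the giant spring of the sarcomere, was low in Myog-low cells and far higher in muscle-rich cells of both clones. In WT, Ttn went from 86.5 CPM in Myog-low cells to 1080 CPM in Myog+ cells, 4490 CPM in muscle-rich cells without Myh1/Myh4 and 6188 CPM with them. In KO the values were 29.6, 316, 746 and 5146 CPM. The KO clone was thus lower at each step and nearest to WT in the last. In Myog+ cells the KO/WT ratio was 0.293 (0.288 to 0.298), and in muscle-rich cells with Myh1/Myh4 it was 0.832 (0.827 to 0.837). Among Myog+ cells of at least 10000 UMIs the median cell had 475 CPM in WT and 42.3 CPM in KO, and the 90th percentile was 2554 and 630 CPM. With every cell thinned to 5000 UMIs, 72.8% of WT Myog+ cells (70.4 to 75.1) and 30.7% of KO Myog+ cells (27.9 to 33.6) had a Ttn UMI, beside 23.2% and 12.6% of Myog-low cells. Without thinning the Myog+ shares were 95.4% and 79.3%.

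Nebulin, the thin filament protein, was already detected in Myog-low cells. Neb was at 82.7 CPM in WT Myog-low cells and 80.5 CPM in KO, then 434 and 261 CPM in Myog+ cells, and 1435 and 1361 CPM in muscle-rich cells with Myh1/Myh4. The Myog+ ratio was 0.602 (0.590 to 0.615), which did not pass 2-fold. A group was taken of the Myog-low cells with at least 3 UMIs of Pax7, the progenitor transcription factor. These cells had Neb at 6.28% of its muscle-rich level in WT and 6.55% in KO. The same cells had Ttn at 1.43% and 0.578% and Myog at 1.48% and 1.87% of theirs. The gate kept Myog low in these cells, so its values do not show which gene comes first. The Myog-low cells of the KO library also held 84 with fibroblast genes (Dcn or Lum, 5 UMIs or more) and no Pax7. In this group, set up after the values were seen, Neb was at 1.05%. After thinning, 29.1% of KO Pax7 cells (27.4 to 30.9) had a Neb UMI against 5.95% of those 84 cells (1.96 to 13.3). Their median depths were 39998.5 and 46083 UMIs. Neb was thus seen in a larger share of KO Myog-low cells with Pax7 than of those 84 cells. Whether the 84 cells give its background level was not tested. For Ttn the shares were 12.1% (10.9 to 13.4) and 8.33% (3.42 to 16.4), whose intervals overlap. Its levels in the same cells were 29.1 CPM (28.2 to 30.1) and 20.6 CPM (16.4 to 25.5), whose intervals do not overlap. WT held no such fibroblast cells.

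Smyd1 had the lowest KO/WT ratio of the 9 in Myog+ cells and in muscle-rich cells with Myh1/Myh4. It was at 9.98, 86.9, 218 and 265 CPM over the 4 WT groups and at 2.00, 16.8, 51.9 and 75.3 CPM in KO. The KO level was the lower one in every group. The ratio was 0.193 (0.179 to 0.208) in Myog+ cells and 0.284 (0.273 to 0.296) in muscle-rich cells with Myh1/Myh4. Within the KO clone Smyd1 was still 8.40-fold (7.34 to 9.64) higher in Myog+ than in Myog-low cells, against 8.72-fold (8.26 to 9.20) in WT. The step was near that of WT, from a lower level. After thinning, 32.8% of WT (30.4 to 35.3) and 6.64% of KO (5.21 to 8.31) Myog+ cells had a Smyd1 UMI, beside 4.34% and 1.09% of Myog-low cells. Unthinned, the Myog+ shares were 79.5% and 30.2%.

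By cell group, the KO/WT ratios of myomesin 1 were below 1, like those of Ttn, Neb and Smyd1, and those of myomesin 2 were not. Myom1 was at 3.46, 46.5, 150 and 196 CPM in WT and 2.30, 29.0, 57.1 and 159 CPM in KO. The Myog+ ratio of 0.625 (0.585 to 0.667) and the ratio with Myh1/Myh4 of 0.814 (0.786 to 0.843) were both below 1 and neither passed 2-fold. Myom2 was at 1.18, 11.02, 98.3 and 141 CPM in WT and 3.91, 12.1, 130 and 355 CPM in KO. The clones had near-equal Myom2 in Myog+ cells, with a ratio of 1.09 (0.977 to 1.23), but 2.52-fold (2.43 to 2.61) more in KO muscle-rich cells with Myh1/Myh4.

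Nrap, the Xin genes and Myoz1 were low in Myog+ cells of both clones. Nrap was at 1.71, 8.59, 84.9 and 144 CPM in WT and 2.30, 3.29, 53.6 and 281 CPM in KO, and its ratio in muscle-rich cells with Myh1/Myh4 was 1.95 (1.89 to 2.02), just short of 2-fold. Xirp1 was at 0.476, 6.24, 41.4 and 59.0 CPM in WT and 0.877, 3.82, 11.2 and 123 CPM in KO. Xirp2 was at 0.850, 3.88, 70.2 and 80.0 CPM in WT and 2.58, 5.64, 68.3 and 257 CPM in KO, the largest ratio of the 9 there at 3.22 (3.08 to 3.37). Myoz1 was at 1.39, 8.32, 55.1 and 82.4 CPM in WT and 5.11, 5.52, 157 and 213 CPM in KO. In all 4 genes the KO level with Myh1/Myh4 was above that of WT, and after thinning at most 3.51% of Myog+ cells in either library had a UMI of any one of them.

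**Figure D1:**
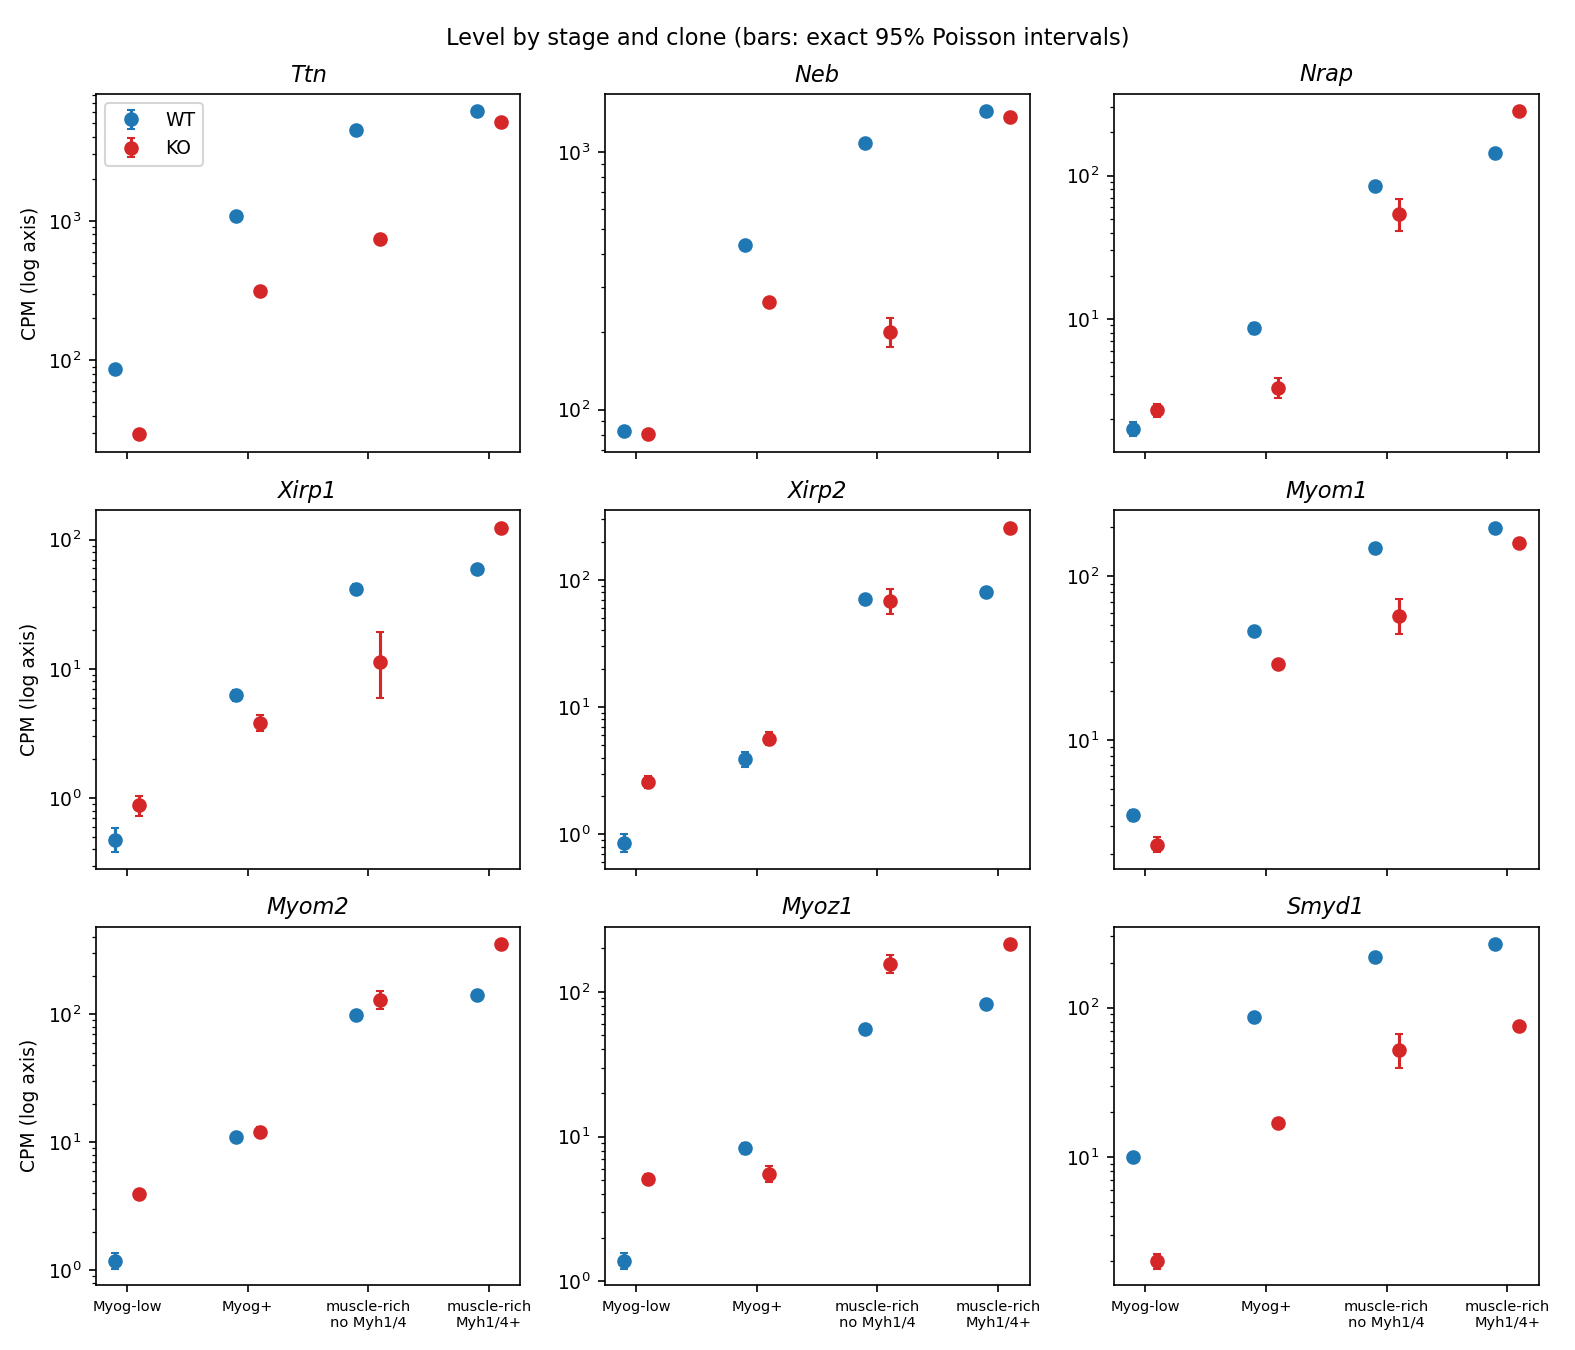
Level of each gene in CPM (log axis) in the 4 cell groups, WT in blue and KO in red, with exact 95% Poisson intervals, which are often smaller than the points. Ttn and Smyd1 sit lower in KO in Myog+ cells, at 316 against 1080 CPM and 16.8 against 86.9 CPM, while Xirp2, Myom2 and Myoz1 sit higher in KO muscle-rich cells with Myh1/Myh4.

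As counts, 5 of the 9 genes were at least 2-fold higher in WT Myog+ than in Myog-low cells, where 5.44% of 7980 genes were higher and 4.05% lower. These were Ttn (12.5-fold), Neb (5.25-fold), Myom1 (13.4-fold), Myom2 (9.33-fold) and Smyd1, the 5 that reached 10 CPM. The same 5 were higher in KO, where 5.04% of genes were higher and 7.59% lower. There Ttn was at 10.7-fold, Neb at 3.25-fold, Myom1 at 12.6-fold and Myom2 at 3.08-fold. In Myog-low cells Myom1 and Myom2, and in KO also Smyd1, were so low that reaching 10 CPM made them count as higher. All 9 were higher in WT muscle-rich cells without Myh1/Myh4 than in Myog+ cells (8.95% of genes were higher and 17.9% lower), from 2.50-fold for Neb to 18.1-fold for Xirp2. In KO 7 were, against 7.85% of genes, while 54% of genes were lower in that shallow group. With against without Myh1/Myh4 in WT, 0 of 9 passed 2-fold, where only 0.153% of 7180 genes were higher. That count therefore tells little about the members. Their ratios were all above 1, from 1.14 for Xirp2 to 1.69 for Nrap. The median log2 ratio over those 7180 genes was -0.004. In KO 7 of 9 were higher, where 37% of genes were higher and 0.502% lower, so this contrast also compares shallow with deep barcodes.

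Between the clones, 2 of the 9 were lower in KO Myog+ cells, Ttn and Smyd1, where 4.2% of 8365 genes were lower, and 0 were higher, where 11% were. The median contractile share of these cells was 0.352% in WT and 0.165% in KO, so the KO group held less contractile RNA. Its part in the Myog+ ratios was not tested. With the contractile gate at 10%, Ttn in Myog+ cells no longer passed 2-fold and Smyd1 still did. In muscle-rich cells with Myh1/Myh4, 4 genes were higher in KO (Xirp1, Xirp2, Myom2 and Myoz1), where 10.9% of 7723 genes were. There 1 was lower (Smyd1), where 5.43% were. The median contractile share of this group was 6.40% in WT and 8.61% in KO, and its part in these ratios was not tested. With the fast myosin gate at 1000 CPM, or the contractile gate at 10%, none of the 4 passed 2-fold, although each ratio was above 1 in all 14 settings tried. Smyd1 passed with the first and, at a log2 ratio of -0.99, just missed with the second. Without Myh1/Myh4, 1 was higher, where 8.02% of genes were, and 5 were lower, where 38.5% were. With cells under 15000 UMIs left out these counts were 0 and 3, and the KO group then held 9 cells. Over all kept cells 5 were higher, where 13.3% were, and 1 was lower, where 3.4% were. This last contrast also holds the larger share of muscle-rich cells in KO, 18.6% against 14.0% of kept cells, so more cells and more RNA a cell cannot be told apart in it. The directions of Ttn, Neb and Myom1 over all kept cells were not stable, and Neb, at a log2 ratio of 0.09, went as low as -0.11 among the settings.

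Onset was then read along the contractile share itself, in ranges from under 0.1% to 10 to 30% of UMIs, with each level given as a percentage of the gene's own highest range. In WT 4 genes reached 10% of their top between 0.3 and 1%: Ttn (15.04% of its top), Neb (31.6%), Myom1 (21.5%) and Smyd1 (33.2%). Nrap, Xirp1 and Myom2 reached it between 1 and 3%, at 12.1%, 27.6% and 19.7%. Xirp2 and Myoz1 reached it only between 3 and 10%. By this rule the WT genes reached the mark in 3 steps, with titin, nebulin, Myom1 and Smyd1 first and the Z-disc gene Myoz1 and Xirp2 last. The mark depends on each gene's top range. In WT that was 10 to 30% for Nrap, Xirp1, Xirp2, Myom2 and Myoz1 and 3 to 10% for Ttn, Neb, Myom1 and Smyd1. The highest range held 108 WT cells with a median of 26212.5 UMIs, against 918 cells and 38713.5 UMIs between 3 and 10%. Myoz1 was at 8.06 CPM between 0.3 and 1%, 62.8 CPM between 3 and 10% and 243 CPM in the highest range. The part of depth in this order was not tested.

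In KO 7 genes reached the mark in the same range as in WT, and Ttn and Nrap reached it 1 range later. These differences depended on the setting. With TMM scaling, or with the 6% of cells of highest doublet score removed, Nrap reached the mark in WT between 3 and 10%, as in KO. With all deposited barcodes Ttn and Nrap reached it in KO in the same range as in WT. Ttn was at 6.16% of its top between 0.3 and 1% and reached the 10% mark between 1 and 3%, at 35.6%. Nrap was at 2.23% between 1 and 3%, where WT was at 12.1%, and reached the mark between 3 and 10%, at 74.3%. Neb, Myom1 and Smyd1 stayed in the early range at 23.8%, 31.5% and 32.7%. In the lowest range, where contractile genes were under 0.1% of UMIs, the members stood at 0.224% (Xirp2) to 4.94% (Neb) of their tops in WT and at 0.467% (Ttn) to 6.16% (Neb) in KO.

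**Figure D2:**
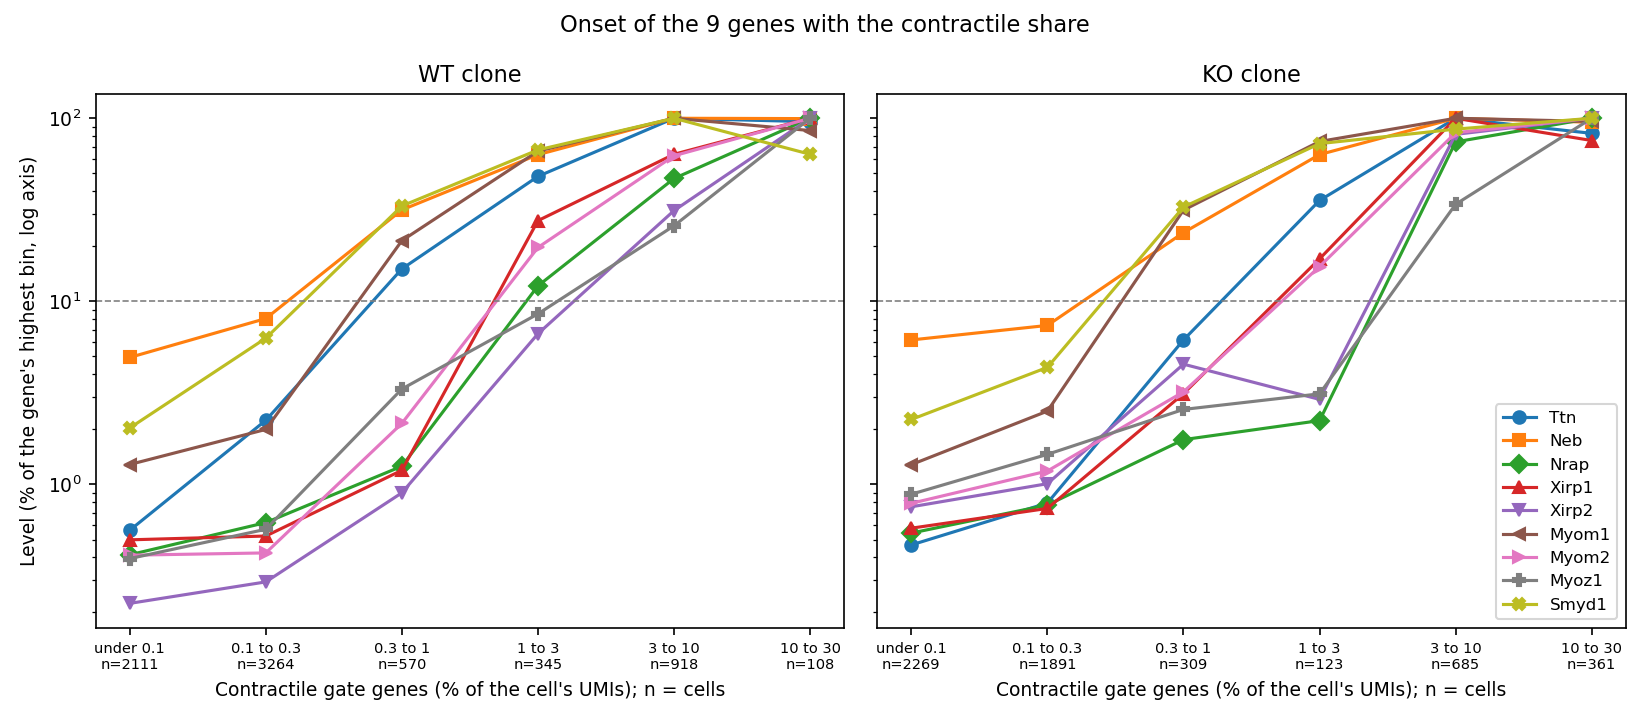
Level of each gene as a percentage of its own highest range (log axis) against the share of a cell's UMIs in the 15 contractile genes, with the cells in each range. The dashed line marks 10%. In WT 4 genes cross it by the range of 0.3 to 1%, and in KO 3 do, since Ttn is at 6.16% there.

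The clones were also compared over all kept cells of the same contractile share. Under 0.1% Ttn was at 32.0 CPM in WT and 24.7 CPM in KO, a ratio of 0.772, and between 0.1 and 0.3% it was at 127 and 41.8 CPM, a ratio of 0.328 (0.315 to 0.341). Between 0.3 and 1%, Ttn was at 856 CPM in WT and 325 CPM in KO, a ratio of 0.380 (0.367 to 0.393). The ratio was 0.686 between 1 and 3%, 0.928 between 3 and 10% and 0.802 between 10 and 30%. The Ttn ratio passed 2-fold between 0.1 and 1% and in no other range. Between 0.3 and 1% the Myog level was 709 CPM in WT cells and 1365 CPM in KO cells. Smyd1 ratios over the 4 ranges from 0.3% upward were 0.317, 0.348, 0.280 and 0.505. Neb ratios there were 0.764, 1.02, 1.02 and 0.970, close to 1 from 1% upward.

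The Nrap ratio lay on different sides of 1 in neighbouring ranges. Between 1 and 3% Nrap was at 30.4 CPM in WT and 7.57 CPM in KO, a ratio of 0.249 (0.175 to 0.344). Between 3 and 10% it was at 117 and 252 CPM, a ratio of 2.14 (2.07 to 2.22). Xirp2 and Myoz1 turned the same way between these ranges, from 0.592 (0.420 to 0.818) to 3.52 (3.37 to 3.68) and from 0.620 (0.470 to 0.808) to 2.22 (2.12 to 2.33). The range of 1 to 3% held 123 KO cells and 345 WT cells, and the KO Nrap level there rests on 40 UMIs. Doublet removal was unequal, with 144 KO cells and 2 WT cells called. With the 6% of cells of highest doublet score removed, WT Nrap no longer reached 10% of its top in that range. The part of doublets in these ratios was not tested. Below it, between 0.3 and 1%, Xirp2 and Myom2 passed 2-fold in the higher direction in KO, with Xirp2 at 1.95 CPM in WT and 13.3 CPM in KO and Myom2 at 4.26 and 12.8 CPM, while Nrap was at 3.15 and 5.96 CPM and Myoz1 at 8.06 and 10.6 CPM. Between 10 and 30% the ratios of Nrap, Xirp1 and Xirp2 were 1.35, 1.19 and 1.35, with Myom2 at 2.01 and Myoz1 at 1.70.

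**Figure D3:**
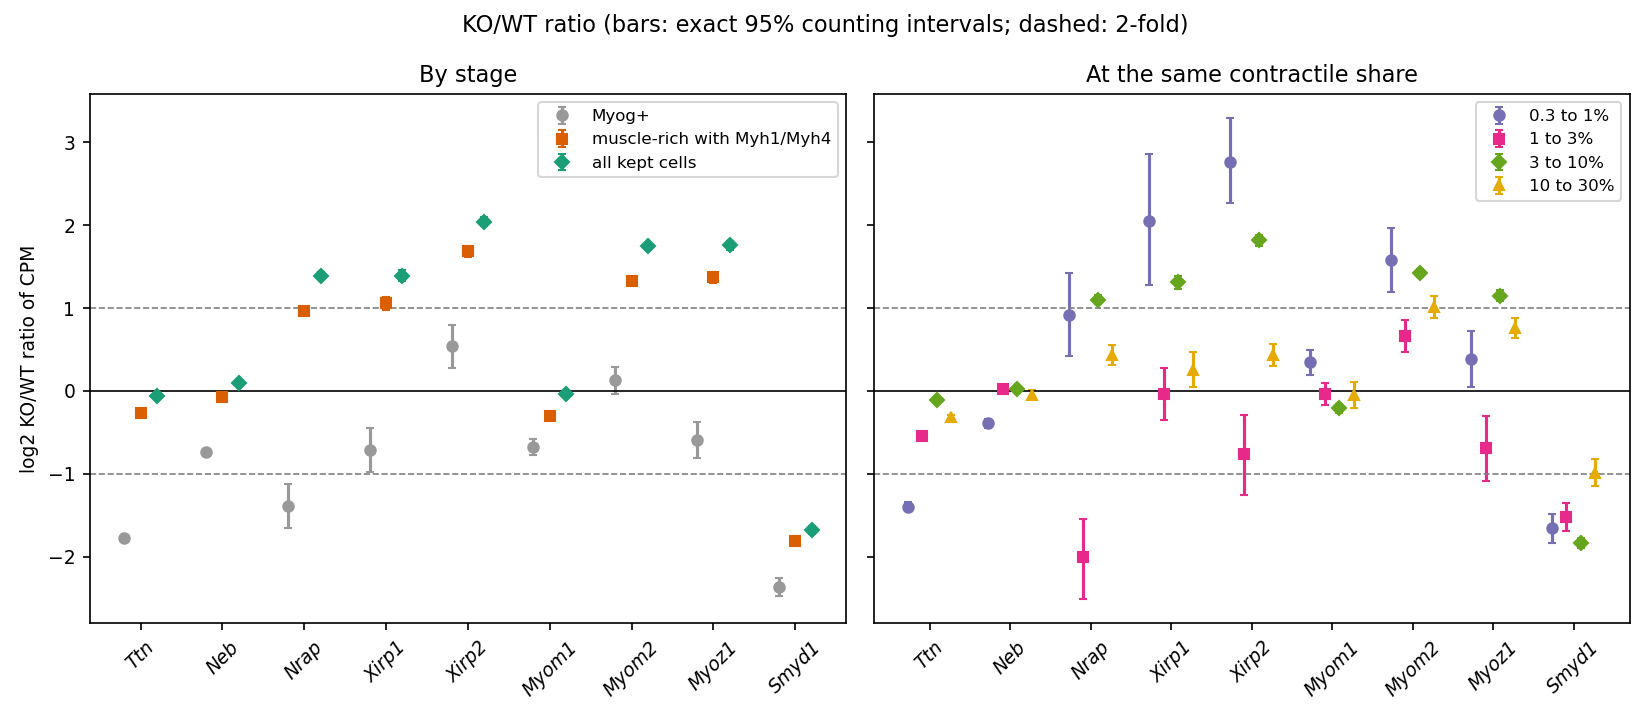
log2 of the KO/WT ratio of CPM for each gene, by cell group (left) and by contractile share (right), with exact 95% counting intervals and dashed lines at 2-fold. Smyd1 is below 0 in every group and range shown, and Nrap is at a ratio of 0.249 between 1 and 3% and 2.14 between 3 and 10%.

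Myh1 and Myh4 themselves differed between the clones. In muscle-rich cells Myh1 was at 398 CPM in WT and 2809 CPM in KO, and Myh4 at 78.7 and 345 CPM. The 9 genes were therefore set out by the summed Myh1 plus Myh4 level in muscle-rich cells of at least 15000 UMIs, a division chosen after the values were seen. Between 200 and 1000 CPM (536 WT and 84 KO cells), Xirp2 was at 64.0 CPM in WT and 244 CPM in KO, a ratio of 3.80 (3.51 to 4.11). Between 1000 and 3000 CPM (106 and 331 cells) it was at 128 and 230 CPM, a ratio of 1.80 (1.65 to 1.98). The Xirp1 ratios in the 2 ranges were 2.02 and 1.64, and those of Myom2 were 1.79 and 1.77. The excess in KO was smaller for Nrap, at 1.47 and 1.18, and for Myoz1, at 1.61 and 1.23.

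Smyd1 did not move with the fast myosins in KO. It was at 72.3, 76.99, 74.7 and 75.1 CPM from under 200 to at least 3000 CPM of the fast myosins, and its KO/WT ratio was 0.286 (0.256 to 0.319) and 0.296 (0.273 to 0.321) in the 2 shared ranges. Ttn went from 4657 CPM in the lowest range to 5924 and 7454 CPM in WT, and from 4025 to 4728 and 5888 CPM over the upper 3 ranges in KO. At equal fast myosin Ttn was lower in KO, at 0.679 (0.669 to 0.690) and 0.634 (0.626 to 0.643), and so were Neb, at 0.718 and 0.716, and Myom1, at 0.638 and 0.709. Myoz1 went from 54.1 to 61.1 and 164 CPM in WT over the first 3 ranges. The lowest KO range held 9 cells and the highest WT range 8.

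**Figure D4:**
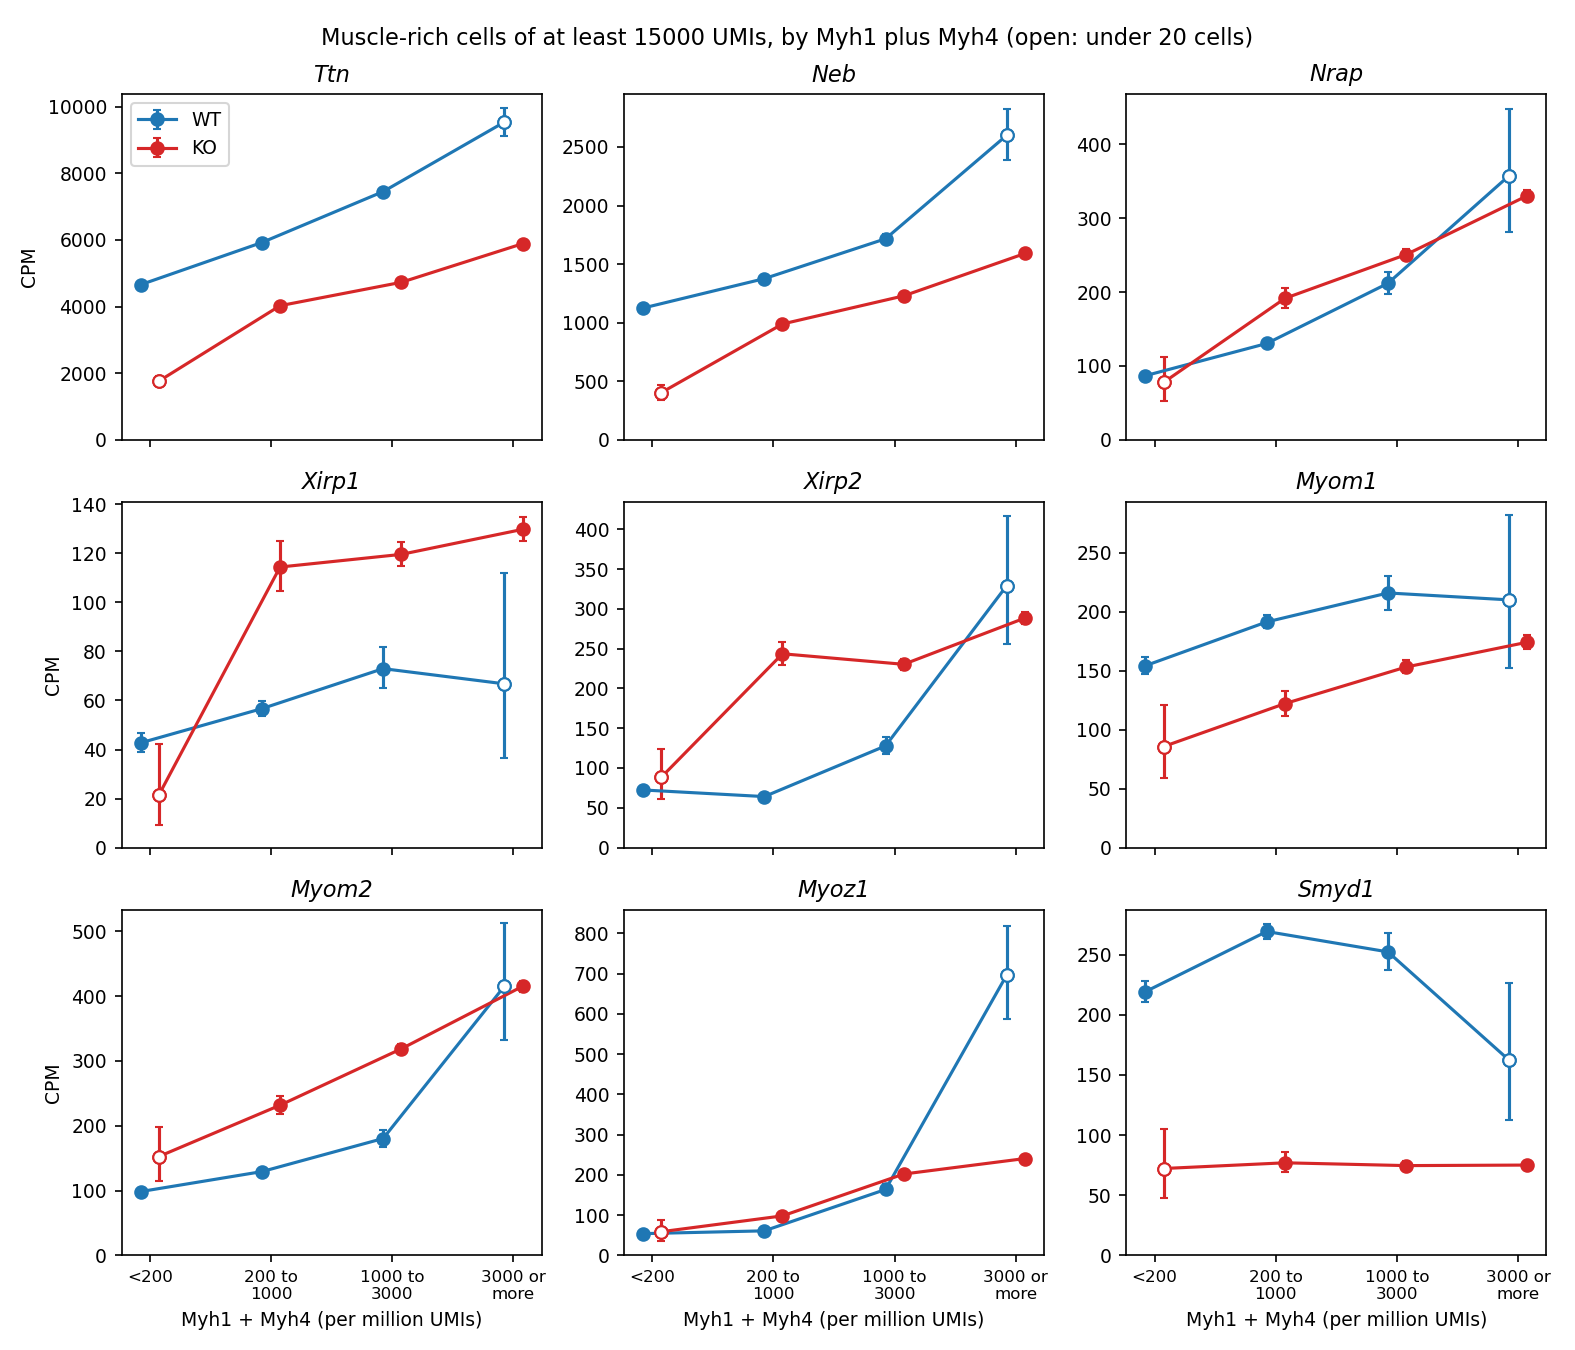
CPM of each gene (y axes start at 0) in muscle-rich cells of at least 15000 UMIs by their Myh1 plus Myh4 level, WT in blue and KO in red, with exact 95% Poisson intervals and open points for under 20 cells. Smyd1 in KO stays between 72.3 and 76.99 CPM, and Ttn is higher in WT in each range.

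Cells of a group were not uniform for the late genes. Among muscle-rich cells with Myh1/Myh4 of at least 10000 UMIs, the median WT cell had 0 Xirp2 CPM and the 90th percentile was 262 CPM, and in KO these were 154 and 548 CPM. Myoz1 had a median of 25.2 and a 90th percentile of 322 CPM in WT, and 59.7 and 675 CPM in KO. Myom1 was more even, with medians of 180 and 145 CPM and 90th percentiles of 342 and 303 CPM. Late genes were also counted in the same cells, with 100 CPM or more called high in muscle-rich cells of at least 15000 UMIs, a count added after the values were seen. Of the WT cells high in Xirp2, 65.5% were high in Myoz1, which 20.9% of all those cells were, and 58.8% of the Myoz1-high cells were high in Xirp2, against 18.7% of all. In KO 47.5% of the Xirp2-high cells were high in Myoz1, against 42.2% of all, and 72.4% of the Myoz1-high cells were high in Xirp2, against 64.3% of all. Nrap was high in 85.6% of the Xirp2-high WT cells, against 51.3% of all, and in 92.2% against 84.4% in KO. The cells high in both Xirp2 and Myoz1 had a median contractile share of 8.01% in WT, against 5.76% for cells high in neither, and 9.91% against 7.18% in KO. The part of the contractile share in this overlap was not tested.

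Shallow barcodes held less Ttn and Neb in both clones. Among kept muscle-rich barcodes, those under 10000 UMIs (68 in WT and 225 in KO) were set against those of at least 30000 UMIs. In KO the shallow level was 0.124 of the deep level for Ttn (0.115 to 0.133), 0.174 for Neb, 0.211 for Xirp1, 0.319 for Nrap, 0.419 for Xirp2, 0.437 for Myom1, 0.597 for Myom2, 0.865 for Smyd1 and 1.43 for Myoz1. In WT it was 0.491 for Ttn, 0.428 for Neb, 0.635 to 0.848 for Nrap, Xirp1, Myom1 and Smyd1, 1.52 for Myom2, 2.94 for Xirp2 and 2.68 for Myoz1. The median mitochondrial share was 0.762% in the KO group without Myh1/Myh4, which holds 146 of the 247 KO muscle-rich barcodes under 15000 UMIs, and 10.3% in the group with them. The part of depth and mitochondrial share in these ratios was not tested.

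Other sarcomere genes were read from lists chosen with results of these data known. In muscle-rich cells, where 11.1% of 7730 genes were higher in KO and 5.94% lower with a median log2 ratio of 0.06, the 9 members had a median of 1.13, with 5 higher and 1 lower. The Z-disc list had 4 higher and 0 lower of 16 that reached 10 CPM, with a median of 0.32. Among them Pdlim3, a Z-disc LIM protein, was at 305 CPM in WT and 669 in KO, Bag3, a chaperone partner of the Z-disc, at 22.9 and 68.5, and the intermediate filament desmin (Des) at 1697 and 4277. The M-band and thick filament list had 1 higher and 1 lower of 12, with the fast myosin-binding protein Mybpc2 at 1.12 and 24.1 CPM and the muscle RING-finger gene Trim55 at 243 and 92.9 CPM.

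The thin filament list had 3 higher and 0 lower of 9, with Tmod4, which caps actin, at 13.9 and 53.4 CPM, and the nebulin-linked Klhl40 and Klhl41 at 63.0 and 134 and at 173 and 457 CPM. The list of myosin chaperones and small heat shock proteins had 1 higher and 0 lower of 5. The higher gene was the small heat shock protein Hspb7, at 12.4 and 73.4 CPM. Titin-linked stress proteins had 1 higher (Ankrd23, 11.9 and 31.6 CPM) and 1 lower (Ankrd2, 685 and 223 CPM) of 5. The list of non-muscle and early myofibril cytoskeleton had 1 of each among 10, with the non-muscle myosin Myh9 at 32.6 and 72.5 CPM and the adhesion protein Zyx at 139 and 39.9 CPM. In Myog+ against Myog-low cells, 5.44% of genes that reached 10 CPM were higher in WT and 5.04% in KO. Of all 10 genes of the thin filament list, 7 were higher in WT and 6 in KO. For the Z-disc list it was 7 and 7 of 18, and for the M-band and thick filament list 6 and 4 of 14. For the chaperones it was 3 and 2 of 5, and for the stress proteins 2 and 2 of 5. Some of these reached 10 CPM only through Myog+ cells, such as Klhl41 at 2.05 and 46.7 CPM in WT Myog-low and Myog+ cells. From so low a level, reaching 10 CPM made a gene count as higher. Such calls were set by the filter and add nothing to the levels. The non-muscle list had 1 higher and 1 lower of 10 in WT and 0 of 10 in KO.

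The genes most like each member in pattern were ranked over 12 sums of cells (6 contractile ranges in each clone) among 9492 genes, by Pearson correlation of log2(CPM + 1). These sums share their libraries and the contractile axis, so the values describe likeness only. Hjv was nearest to both Ttn (r = 0.991) and Neb (0.992), Mybph, a thick filament protein, to both Xirp1 (0.995) and Myom2 (0.996), and Pgam2, a muscle glycolytic enzyme, to Myoz1 (0.989). Nrap was nearest to Fn3k (0.995), Myom1 to the Z-disc gene Ldb3 (0.990), Xirp2 to the co-chaperone Dnaja4 (0.988) and Smyd1 to the muscle kinase gene Alpk3 (0.977). Among the members, Ttn and Neb were most alike (0.989) and Xirp2 and Smyd1 least (0.674).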

How the data were processed

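The authors deposited unnormalized UMI counts of every gene in each barcode, which Cell Ranger 7.2.0 wrote, per the file headers. The submitters' processing notes list GRCm39 and Seurat but no roles for them, and whether intronic reads were counted is not given in the sources used here. Cells with at least 1000 genes and at most 15% mitochondrial UMIs were kept. Scrublet (scanpy 1.11.5) calls were removed: 144 KO cells (2.49%) but 2 WT cells (0.0273%), so the caller did not work in WT. UMI counts were summed by library and group and scaled to CPM. Levels have exact Poisson intervals, ratios exact conditional intervals and shares of cells Clopper-Pearson intervals (scipy 1.17.1), all covering counting error only. For shares of cells each cell was thinned to 5000 UMIs. TMM factors came from edgeR 4.0.16. All 9 members are named. Of each other list the 3 genes with the largest KO/WT change in either direction were eligible, and for each member the 3 most alike. Members and lists were chosen with earlier results of these data known.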

Additional observations from a re-analysis of the deposited data

Results flagged for a closer look

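Neb changed in opposite directions between the clones in muscle-rich cells without Myh1/Myh4 against Myog+ cells, with a log2 ratio of 1.32 in WT and -0.39 in KO; the difference between the clones was not tested. Of the 155 KO cells in that group 146 were under 15000 UMIs. The KO direction was not stable: the log2 ratio was 0.58 with TMM scaling, 0.29 with the contractile gate at 1%, 1.59 with the Myh1/Myh4 gate at 1000 CPM and 0.62 with cells under 15000 UMIs left out.

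Contractile genes also took at least 3% of the UMIs in barcodes that the filters removed. In WT these were 103 of 577 barcodes with under 1000 genes and 85 of 296 others with over 15% mitochondrial UMIs. In KO they were 596 of 1111 and 541 of 777. Ttn was at 10348 CPM in the WT muscle-rich barcodes of high mitochondrial share and at 5584 CPM in those of KO. The median depth of these high-mitochondrial barcodes was 21397 UMIs in WT and 43189 UMIs in KO. The main levels and shares of muscle-rich cells leave them out.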

How the results depend on the processing

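No paired analysis was possible because each genotype has 1 library. Smyd1 was lower in KO under each setting tried, from -2.69 to -1.96 (log2) in Myog+ cells. TMM scaling moved the log2 ratios of all genes by -0.32 in Myog+ cells, -0.18 over all kept cells and 0.51 in muscle-rich cells without Myh1/Myh4. The share of called genes that were higher in KO then went from 72.3% to 47.2%, from 79.7% to 66.4% and from 17.3% to 44.8%. Among the members, Neb in KO Myog+ cells then passed 2-fold (-1.05), for 3 lower in place of 2. Xirp1 with Myh1/Myh4 (0.97) and Myom1 without them (-0.88) no longer did, for 3 higher in place of 4 and 4 lower in place of 5. In KO the counts went from 5 to 4 for Myog+ against Myog-low, from 7 to 8 for the next step and from 7 to 5 for the last.

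With the contractile gate at 10%, KO Myog+ cells had 4 genes higher and 1 lower than WT, and both muscle-rich groups had 0 higher (with Myh1/Myh4 also 0 lower). Myog+ against Myog-low had 9 higher in WT and in KO, the next step 5 in WT and 1 in KO, and the last step 2 in WT. On that next step the log2 ratios reversed for Ttn (-0.092), Neb (-0.19), Myom1 (-0.13) and Smyd1 (-0.040) in WT, and for Ttn (-3.71), Nrap (-0.96), Xirp1 (-2.93), Xirp2 (-0.63) and Myom2 (-0.37) in KO. The gate at 1% gave 1 gene higher with Myh1/Myh4 in WT, and the thin filament gate 8 higher in WT Myog+ cells.

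With the Myh1/Myh4 gate at 50 CPM, 1 gene was higher with Myh1/Myh4 in WT, and Ttn reversed in KO without them against Myog+ (-0.51). At 1000 CPM, 2 were higher with them in WT and 0 in KO. Between clones 0 were higher with them and 1 was lower without them, where Xirp1 reversed (0.78).

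With all barcodes 1 gene was higher in KO Myog+ cells. Without a CPM minimum 9 were higher in WT Myog+ than Myog-low cells, and at 30 CPM 2 in KO. At 1.5-fold 4 were lower in KO Myog+ cells and 1 was higher with Myh1/Myh4 in WT. At 3-fold 3 were higher in KO over all kept cells, 0 without and 1 with Myh1/Myh4. Leaving out cells under 15000 UMIs, a setting chosen after seeing the data, gave 0 higher and 3 lower without Myh1/Myh4. Without thinning, 8 genes were seen in at least 10% of Myog+ cells in each clone, against 4 in WT and 2 in KO. The cause of these changes was not tested.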
